A study of Mus musculus with 6 samples.

Results

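The genes described here are the 10 that encode the MHC class I molecule and its peptide-loading machinery: the heavy chains H2-K1, H2-D1, H2-T22 and H2-T23, the light chain B2m, the peptide transporter Tap1 and Tap2, the loading chaperone Tapbp (tapasin), the trimming peptidase Erap1 and the transactivator Nlrc5. They were chosen by symbol from the 57010 gene identifiers of the count table, and each of the 10 had 1 row. RNA was sequenced from CT26, a colon carcinoma line derived from a BALB/c mouse, in cells labelled sgControl (3 libraries) or sgCdk10 (3 libraries). Both groups are cultured cells of the same line and carry a guide RNA; neither the guide sequences nor whether the cells were a pool or 1 clone is given in the sources used here. The title of the study names Cdk10, nucleic acid sensors and antitumor immunity, and the comparison asks here how class I genes, and classical against non-classical chains, stood in the cells with the Cdk10 guide.

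A class I molecule consists of a heavy chain, the light chain β2-microglobulin and a short peptide, which in most cases was cut from a cytosolic protein by the proteasome. The TAP transporter carries peptides into the endoplasmic reticulum, where tapasin holds the empty molecule beside the transporter and ERAP1 trims the peptides. Classical chains (H2-K1 and H2-D1 here) are highly polymorphic and present peptides to cytotoxic T cells, whereas non-classical chains are less polymorphic and often bind a narrow set of ligands. NLRC5 is the coactivator that drives transcription of many of these genes through a shared promoter unit, and interferons raise nearly all of them.

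Libraries held between 17532202 and 19258309 counts, and a floor of 3 counts corresponded to 0.156 to 0.171 CPM (counts scaled to the same library total). Cdk10 itself, which checks the labels, was lower in every sgCdk10 library (204, 227 and 202 counts) than in the sgControl libraries (381, 344 and 365) (log2 fold change -0.82, SE 0.08; edgeR adjusted p = 8.4e-09). The first principal component (53.3% of the variance) separated the groups, and the second (16.5%) set sgControl replicate 3 apart; this library also had 4.93% mitochondrial counts against 4.19% to 4.40% in the other 5. Whether the libraries of a group were separate cultures is not given in the labels. The p-values therefore measure the spread between libraries, which may be technical. A chi-square per degree of freedom set pairs of libraries within a group against counting error alone. It was 1.49 to 1.56 in pairs without sgControl replicate 3, and 3.97 and 4.02 in pairs with it. In bulk RNA, fewer cells with a transcript and less transcript per cell cannot be told apart.

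The heavy chains carry a limit of their own. BALB/c mice have an H2 haplotype that differs from that of the reference genome mm10, so reads were counted against alleles that these cells do not carry. H2-L, a classical chain known from BALB/c, matched no row by symbol and was not analysed here. Where reads of H2-L were counted, if at all, was not tested. Of the 50-base windows of exon sequence in the reference, 9.63% in H2-K1, 10.9% in H2-D1, 9.69% in H2-T23 and 34.4% in H2-T22 also occurred in another H2 gene, most of the last in H2-T10 (31.2%). The other 6 genes shared no window with an H2 gene. Levels of single heavy chains are therefore uncertain, by shared windows H2-T22 most of all. These windows compare reference alleles and do not measure how reads of the BALB/c alleles were assigned.

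The promoters are shown first because the classical chains and B2m share a stretch of letters that the other genes hold in part or not at all. RefSeq promoter windows on GRCm38.p6, 250 bases before to 50 bases after a transcript start, were matched by symbol for 8 of the 10 genes; Tap2 and Nlrc5 had no entry. Each window was searched on both strands for the X2 core TGACG, the Y box ATTGG, an NF-kB site GGGANNNNCC and an interferon response element in a short form GAANNGAAA or a full form GAAANNGAAA. The forms can overlap each other, and the NF-kB letters can overlap their own reverse complement. A match is a description of letters in the reference strain, not evidence of binding. Upstream bases also lay in annotated exons of the same gene: all 250 in H2-D1 and Erap1, 154 in H2-T23 and 146 in Tapbp. In these windows a match or its absence refers to the RefSeq start, which lies inside the annotated gene. In the 3 upstream sequences below, 5′ to 3′ on the strand of the gene, capitals mark these letters on either strand.
H2-K1, chr17:34000348-34000597, minus strand: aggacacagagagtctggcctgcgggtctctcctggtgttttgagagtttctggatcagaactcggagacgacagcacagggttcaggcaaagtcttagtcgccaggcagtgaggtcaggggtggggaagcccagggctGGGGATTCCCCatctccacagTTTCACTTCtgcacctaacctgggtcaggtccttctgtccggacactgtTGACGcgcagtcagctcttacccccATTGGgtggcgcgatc
B2m, chr2:122147437-122147686, plus strand: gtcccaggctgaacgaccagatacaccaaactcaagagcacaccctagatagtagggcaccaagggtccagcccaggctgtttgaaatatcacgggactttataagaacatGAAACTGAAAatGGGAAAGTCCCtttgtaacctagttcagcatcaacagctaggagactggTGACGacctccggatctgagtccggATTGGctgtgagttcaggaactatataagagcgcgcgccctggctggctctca
H2-T22, chr17:36042743-36042992, minus strand: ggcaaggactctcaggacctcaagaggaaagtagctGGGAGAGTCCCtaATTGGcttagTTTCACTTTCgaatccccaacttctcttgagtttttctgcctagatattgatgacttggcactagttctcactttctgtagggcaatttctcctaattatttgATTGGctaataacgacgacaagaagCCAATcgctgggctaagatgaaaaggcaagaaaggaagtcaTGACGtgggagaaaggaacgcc

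H2-K1, H2-D1 and B2m each held TGACG and ATTGG on the same strand with 20 bases between them. This spacing was noticed in these sequences before it was counted: 31 of the 32851 windows in the table, from 27 genes, held it (0.0944%). Those 31 include the windows of H2-K1 (2 windows), H2-D1 and B2m, from which the spacing was taken. TGACG alone was in 20.8% of windows and ATTGG alone in 37.4%. The best 30-base stretch for the same 10 letters matched 8 of 10 in H2-T23 and Tap1 and 7 of 10 in H2-T22, Erap1 and Tapbp, and 12.6% of all windows held a stretch with 8 or more matches and 73.0% one with 7 or more. In the lines below, capitals mark the letters that match, and the position of the first base is counted from the transcript start. From the other RefSeq start of H2-K1 the first base is at -55.
H2-K1, chr17:34000359-34000388, minus strand, first base at -41: TGACGcgcagtcagctcttacccccATTGG
H2-D1, chr17:35262993-35263022, plus strand, first base at -101: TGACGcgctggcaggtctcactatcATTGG
B2m, chr2:122147609-122147638, plus strand, first base at -78: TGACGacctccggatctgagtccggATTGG
H2-T23, chr17:36032773-36032802, minus strand, first base at -101: TGAtGcagtctcaattctcatttctgTTGG
H2-T22, chr17:36042826-36042855, minus strand, first base at -113: TaggGcaatttctcctaattatttgATTGG
Tap1, chr17:34187470-34187499, plus strand, first base at -86: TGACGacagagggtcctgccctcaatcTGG

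The interferon response element letters were found in 6 of the 8 windows, against 10.4% of all windows. H2-K1 and H2-D1 held the short form (7.52% of windows), and H2-T22, H2-T23, B2m and Erap1 the full form (3.44%). The letters were not in the windows of Tap1 and Tapbp. NF-kB letters (20.7% of windows) were in 4 of the 8, next to the element in H2-K1, H2-D1, H2-T22 and B2m. In the stretches below, capitals mark letters of any of the motifs on either strand, and the H2-T22 stretch begins inside its NF-kB letters; in the genes other than B2m the element is read on the opposite strand.
H2-K1, chr17:34000429-34000458, minus strand: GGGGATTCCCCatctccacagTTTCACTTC
H2-D1, chr17:35262923-35262952, plus strand: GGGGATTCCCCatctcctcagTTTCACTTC
H2-T22, chr17:36042924-36042953, minus strand: AGAGTCCCtaATTGGcttagTTTCACTTTC
H2-T23, chr17:36032816-36032845, minus strand: atgaaaagggatcctactgcTTTCTCTTTC
B2m, chr2:122147528-122147557, plus strand: acgggactttataagaacatGAAACTGAAA
Erap1, chr13:74639829-74639858, plus strand: ccctgccggtccaccttcacTTTCACTTTC

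**Figure D1:**
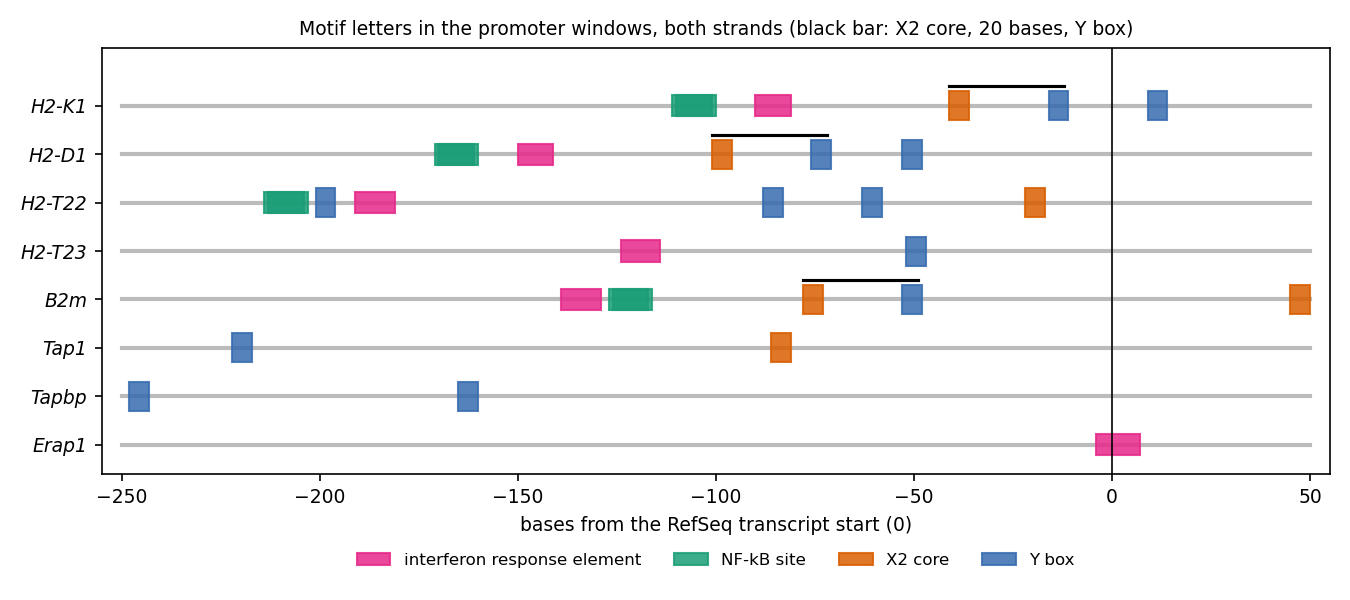
Positions of the motif letters in the 8 promoter windows, in bases from the RefSeq transcript start; coloured boxes are matches on either strand and the black bar joins an X2 core and a Y box 20 bases apart. The bar is present in H2-K1, H2-D1 and B2m, and the interferon response element in 6 of 8 windows.

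Across the 10 genes, differences between the groups were small and all above 0. By edgeR's quasi-likelihood test with p-values adjusted over 13442 genes, 6 of the 10 genes were called higher in sgCdk10 (H2-K1, H2-D1, H2-T23, B2m, Tap2 and Tapbp) and 0 lower, where 42.5% of all tested genes were called, 22.1% higher and 20.4% lower. At an unadjusted p under 0.05, 8 were higher and 0 lower, against 25.4% higher among all genes. Fold changes ran from 1.06 (H2-K1) to 1.25 (H2-T23), with a median log2 fold change of 0.16 beside -0.00 over all tested genes. In 6 genes (H2-D1, H2-T23, B2m, Tap1, Tap2 and Tapbp) every sgCdk10 library lay above every sgControl library, as in 26.6% of tested genes. DESeq2 called 3 of the 10 higher (H2-D1, B2m and Tapbp), where it called 16.3% of tested genes higher; these 3 genes were called under all 14 alternatives.

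**Figure D2:**
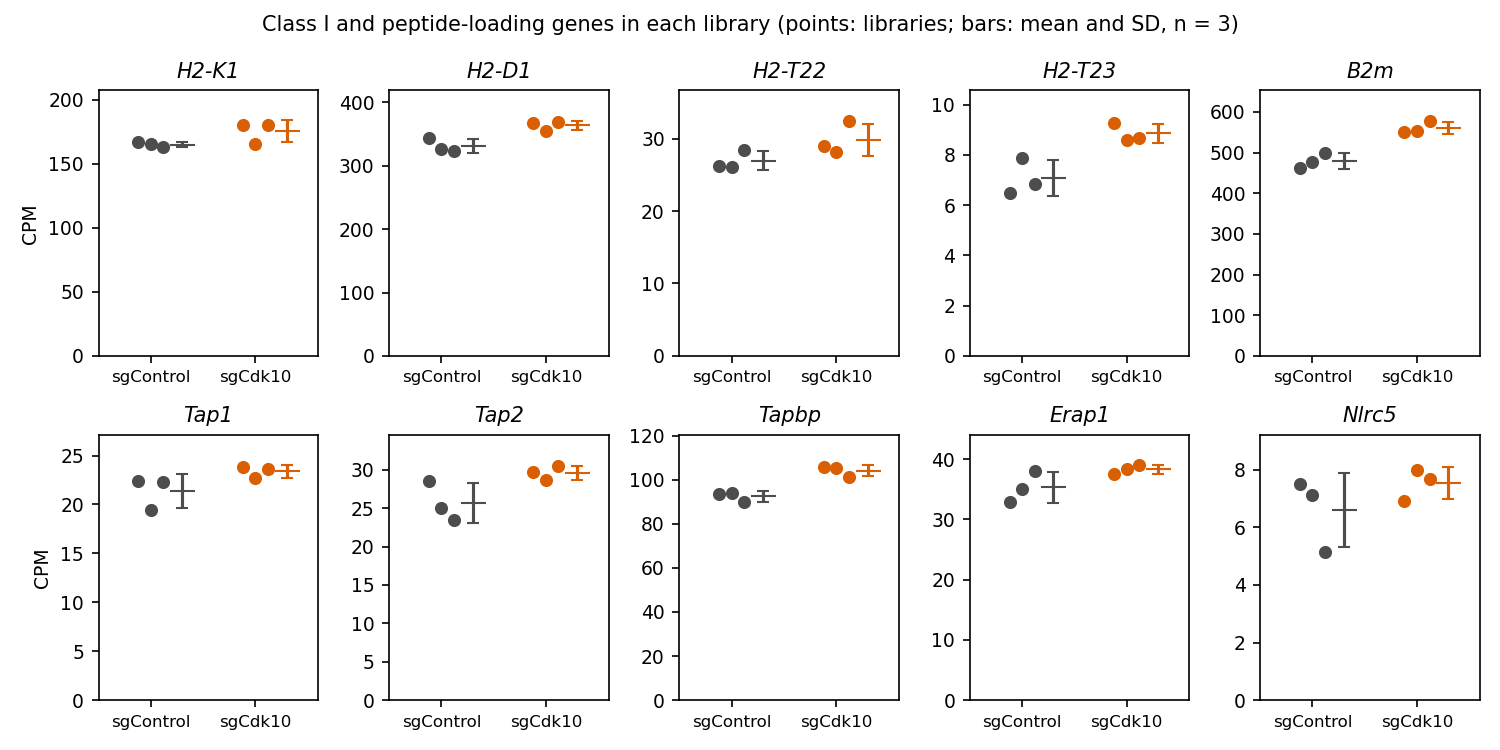
CPM of the 10 genes in each of the 6 libraries (points) with the mean and SD of 3 libraries (bars), each panel with its own axis from 0. The sgCdk10 points clear the sgControl points in H2-D1, H2-T23, B2m, Tap1, Tap2 and Tapbp and overlap them in the other 4 genes.

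Of the classical chains, H2-D1 showed the clearer difference. H2-D1 (ENSMUSG00000073411; GRCm38 chromosome 17, 35262730 to 35267499, plus strand) was at 343, 326 and 324 CPM in sgControl and 367, 355 and 369 in sgCdk10. The groups did not overlap: the lowest sgCdk10 library, replicate 2, stood above the highest sgControl library. The means were 331 ± 10.5 and 364 ± 7.63 CPM (SD, n = 3; log2 fold change 0.14, SE 0.03; edgeR adjusted p = 0.000523).

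H2-K1 (ENSMUSG00000061232; chromosome 17, 33996017 to 34000347, minus strand), the second classical chain, was at 167, 165 and 163 CPM in sgControl and 180.1, 165 and 180.3 in sgCdk10. Replicate 2 of sgCdk10 lay at the sgControl level, while the other 2 sgCdk10 libraries lay above all sgControl libraries. H2-K1 rose from 165 ± 1.90 to 175 ± 8.61 CPM (SD, n = 3; log2 fold change 0.09, SE 0.03; edgeR adjusted p = 0.0406). This call was the least stable of the 6: H2-K1 was called in 5 of 14 alternatives, with adjusted p = 0.118 in DESeq2 and adjusted p = 0.0623 in limma-voom. It was lost on leaving out sgControl replicate 1 (adjusted p = 0.0566) or 2 (0.0749) or sgCdk10 replicate 1 (0.205) or 3 (0.202), all by edgeR.

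Of the non-classical chains, H2-T23 had the larger difference and the lower level. H2-T23 encodes Qa-1, which presents peptides from the signal sequences of other class I chains to the inhibitory receptor NKG2A. The gene (ENSMUSG00000067212; chromosome 17, 36029773 to 36032855, minus strand) had 6.49, 7.86 and 6.84 CPM in sgControl and 9.28, 8.60 and 8.68 in sgCdk10, from 115 to 168 counts per library. All 3 sgCdk10 libraries stood above sgControl replicate 2, the highest control. H2-T23 rose from 7.07 ± 0.711 to 8.85 ± 0.373 CPM (SD, n = 3; log2 fold change 0.33, SE 0.10; edgeR adjusted p = 0.0132). The call was lost in DESeq2 (adjusted p = 0.0973) and, by edgeR, without sgControl replicate 1 (adjusted p = 0.0664) or sgCdk10 replicate 1 (adjusted p = 0.0602).

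H2-T22 encodes a chain that pairs with β2-microglobulin without needing a peptide and is known as a ligand of some γδ T cell receptors. It (ENSMUSG00000056116; chromosome 17, 36037128 to 36042747, minus strand) was at 26.3, 26.1 and 28.4 CPM in sgControl and 29.0, 28.1 and 32.4 in sgCdk10. The groups overlapped, since sgCdk10 replicate 2 lay below sgControl replicate 3. The log2 fold change was 0.15 (SE 0.06; 95% interval 0.02 to 0.28), not called with edgeR adjusted p = 0.0508. Without sgControl replicate 3 edgeR gave 0.19 (adjusted p = 0.0103), without sgCdk10 replicate 2 also 0.19 (adjusted p = 0.0388) and without sgCdk10 replicate 3 0.09 (adjusted p = 0.344). With the correction for GC content and length it was called (edgeR adjusted p = 0.0422). Summed with H2-T10, the H2 gene it shares most windows with, it stood at 34.6 ± 2.33 CPM in the controls and 38.8 ± 1.77 in sgCdk10, and the groups still overlapped. Exons of H2-T22 also overlap the antisense gene A930015D03Rik over 1003 bases.

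The balance of classical to non-classical chains was compared within each library, which removes scaling between libraries. Counts per kilobase of merged exon for H2-K1 and H2-D1 together, divided by those for H2-T22 and H2-T23, gave 19.1, 17.6 and 16.9 in sgControl and 17.4, 17.3 and 16.4 in sgCdk10. The highest value was sgControl replicate 1 and the lowest sgCdk10 replicate 3, and the groups overlapped. The means were 17.9 ± 1.10 and 17.0 ± 0.552 (SD, n = 3), a log2 difference of -0.07, which is smaller than the SD of 0.09 between sgControl libraries. The direction depended on the chains counted. With all 10 tested non-classical H2 chains in the denominator the log2 difference was 0.043, and with H2-T23 alone -0.21. Of those 10 chains, H2-M3 had the highest level, 26.5 CPM per kilobase in sgControl and 24.8 in sgCdk10. As a ratio over chosen genes it was given no test.

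Both sums themselves were higher in sgCdk10. The classical pair summed to 496 ± 12.1 CPM in sgControl and 539 ± 16.2 in sgCdk10, 1.09-fold, and the non-classical pair to 34.0 ± 1.25 and 38.7 ± 2.19, 1.14-fold (SD, n = 3). Neither sum overlapped between groups. All 12 tested H2 class I chains together stood at 617 ± 13.7 CPM in the controls and 672 ± 17.5 with the Cdk10 guide. The groups again did not overlap. Most of this sum was the classical pair. It does not depend on how counted reads were divided among these chains, but reads left uncounted or counted in other genes are outside it. Within the classical pair the H2-K1 to H2-D1 ratio per kilobase was 0.438 ± 0.00993 in sgControl and 0.423 ± 0.0122 in sgCdk10. Within the non-classical pair the H2-T22 to H2-T23 ratio was 3.25 ± 0.385 and 2.86 ± 0.267, and both ratios overlapped between groups.

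**Figure D3:**
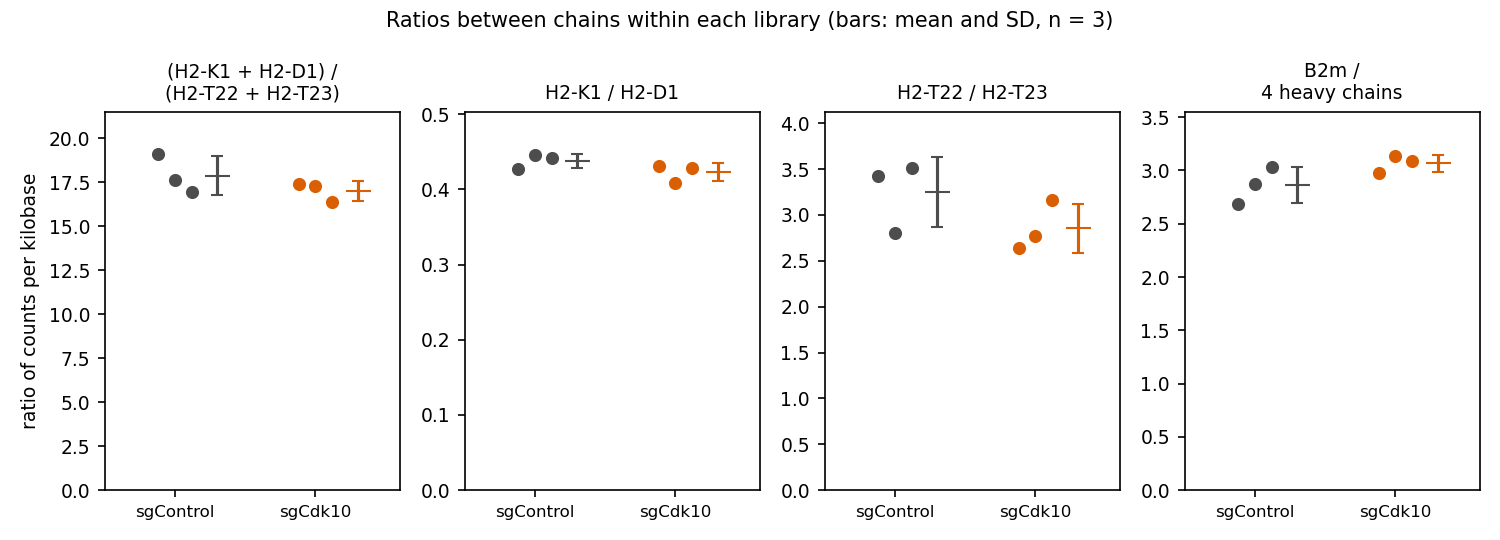
Ratios of counts per kilobase within each of the 6 libraries (points) with mean and SD of 3 libraries (bars), axes from 0. In all 4 ratios the sgControl and sgCdk10 points overlap; the classical to non-classical ratio spans 16.9 to 19.1 in sgControl and 16.4 to 17.4 in sgCdk10.

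B2m encodes the light chain that nearly every class I molecule needs to leave the endoplasmic reticulum. B2m (ENSMUSG00000060802; chromosome 2, 122147686 to 122153083, plus strand) was at 462, 477 and 499 CPM in sgControl and 550.1, 553 and 577 in sgCdk10. All 3 sgCdk10 libraries stood above the highest control, replicate 3. B2m rose from 479 ± 18.8 to 559.9 ± 14.9 CPM (SD, n = 3; log2 fold change 0.22, SE 0.03, 95% interval 0.16 to 0.29; edgeR adjusted p = 1.5e-06), the smallest p of the 10 genes. Over the 14 alternatives its log2 fold change lay between 0.20 and 0.30. Per kilobase, B2m to the sum of the 4 heavy chains was 2.69, 2.87 and 3.03 in sgControl and 2.97, 3.13 and 3.09 in sgCdk10, so the groups overlapped through sgControl replicate 3.

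Of the TAP subunits, which form the transporter as a heterodimer, Tap2 was called higher and Tap1 was not. Tap2 (ENSMUSG00000024339; chromosome 17, 34203527 to 34216321, plus strand) was at 28.5, 25.0 and 23.5 CPM in sgControl and 29.7, 28.6 and 30.4 in sgCdk10. The groups did not overlap, but sgControl replicate 1 and sgCdk10 replicate 2 lay close together. Tap2 rose from 25.7 ± 2.57 to 29.6 ± 0.905 CPM (SD, n = 3; log2 fold change 0.21, SE 0.06; edgeR adjusted p = 0.0114). DESeq2 did not call it (adjusted p = 0.0682), nor did edgeR without sgControl replicate 3 (0.14, adjusted p = 0.0519), without sgCdk10 replicate 3 (adjusted p = 0.0712) or with the correction for GC content and length (0.14, adjusted p = 0.0542). Exons of Tap2 overlap the opposite-strand genes Gm20496 (165 bases) and Gm15821 (533 bases).

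Tap1 (ENSMUSG00000037321; chromosome 17, 34187553 to 34197225, plus strand) was at 22.4, 19.4 and 22.3 CPM in sgControl and 23.8, 22.7 and 23.6 in sgCdk10. Its sgControl replicate 2 was low, and the other 2 controls lay just under the sgCdk10 range without entering it. The log2 fold change was 0.13 (SE 0.06; 95% interval -0.00 to 0.26; edgeR adjusted p = 0.112), and none of the 14 alternatives called it. Without sgControl replicate 2 it was 0.07 (edgeR adjusted p = 0.48). The Tap1 to Tap2 ratio per kilobase was 0.578 ± 0.0668 in sgControl and 0.546 ± 0.00906 in sgCdk10 and overlapped between groups, so a difference between the subunits was not shown. Tap1 exons overlap those of Psmb9, an immunoproteasome subunit gene on the opposite strand, over 212 bases.

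Tapbp encodes tapasin, which bridges the heavy chain to TAP and favours tightly binding peptides. Tapbp (ENSMUSG00000024308; chromosome 17, 33915899 to 33929292, plus strand) was at 93.7, 94.2 and 89.7 CPM in sgControl and 105.7, 105.4 and 101 in sgCdk10. Every sgCdk10 library stood clear of the controls. Tapbp rose from 92.5 ± 2.47 to 104 ± 2.53 CPM (SD, n = 3; log2 fold change 0.17, SE 0.04; edgeR adjusted p = 0.000386). With the correction for GC content and length the log2 fold change was 0.09 (edgeR adjusted p = 0.0158). Its exons overlap Zbtb22 on the same strand over 149 bases and Gm19412 on the opposite strand over 904.

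Erap1 encodes the aminopeptidase that trims peptides in the endoplasmic reticulum to the length class I binds. Erap1 (ENSMUSG00000021583; chromosome 13, 74639568 to 74693201, plus strand) was at 32.9, 35.1 and 38.0 CPM in sgControl and 37.6, 38.4 and 39.0 in sgCdk10. The sgControl libraries spread widely, and replicate 3 of sgControl stood inside the sgCdk10 range. The log2 fold change was 0.12 (SE 0.05; 95% interval 0.00 to 0.23), not called with edgeR adjusted p = 0.0865. Without sgControl replicate 3 it was 0.17 and called (edgeR adjusted p = 0.00566), and without sgControl replicate 1 it was 0.07 (edgeR adjusted p = 0.37). Exons of Cast, on the opposite strand, overlap Erap1 over 834 bases.

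Nlrc5, the transactivator of the class I genes, had the lowest level of the 10. Nlrc5 (ENSMUSG00000074151; chromosome 8, 94434356 to 94527272, plus strand) was at 7.51, 7.13 and 5.13 CPM in sgControl and 6.91, 7.97 and 7.69 in sgCdk10. The groups overlapped, with sgCdk10 replicate 1 below 2 of the 3 controls. The log2 fold change was 0.19 (SE 0.13; 95% interval -0.07 to 0.45; edgeR adjusted p = 0.237), 0.04 without sgControl replicate 3 and 0.30 without sgControl replicate 1, and no alternative called it. The interval spans a fold change from 0.953 to 1.37, so a difference of the size seen in B2m was within it.

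**Figure D4:**
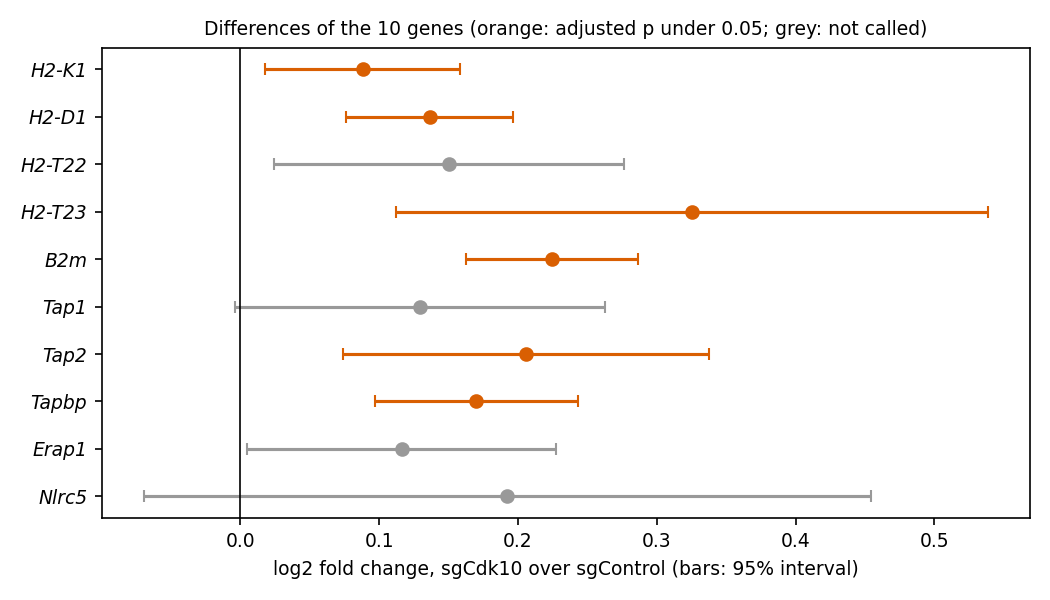
Log2 fold change (sgCdk10 over sgControl) of the 10 genes with 95% intervals; orange marks the 6 genes with an edgeR adjusted p under 0.05, grey the 4 not called. All 10 points lie above 0, from 0.09 for H2-K1 to 0.33 for H2-T23, and the intervals of Tap1 and Nlrc5 include 0.

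Levels were compared between genes as CPM per kilobase of merged exon, averaged over the 6 libraries. B2m led with 604, followed by H2-D1 (135), H2-K1 (57.9) and Tapbp (27.1). H2-T22 (8.31) and Tap2 (7.31) came next, and their ranges over the 6 libraries overlapped (7.64 to 9.48 and 6.22 to 8.05). Erap1 (5.06), Tap1 (4.09), H2-T23 (2.75) and Nlrc5 (0.831) closed the order. Other neighbours in this order had ranges that did not overlap, and the same order held in each of the 6 libraries. In both groups the classical pair held most of the 4 chains' counts per kilobase, 94.7% in sgControl and 94.4% in sgCdk10. This share refers to these 4 chains only, since other non-classical chains had higher levels. In sgControl, H2-M3 stood at 26.5 and H2-Q4 at 10.2 CPM per kilobase, against 7.88 for H2-T22 and 2.45 for H2-T23.

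Beyond these chains, 12 of 29 listed class I and class I-like chains were tested; 4 rose and 0 fell, beside 22.1% called higher and 20.4% lower over all tested genes. The median log2 fold change of these 12 was 0.28. H2-Q4, a Qa-region chain, rose from 26.4 ± 3.11 to 32.3 ± 1.29 CPM (SD, n = 3; log2 fold change 0.29; edgeR adjusted p = 0.00162). Fcgrt, the neonatal Fc receptor chain that also pairs with β2-microglobulin, rose by 0.47 on the log2 scale (edgeR adjusted p = 0.00106). Procr, the endothelial protein C receptor, which has a class I-like fold without β2-microglobulin, rose by 0.35 (edgeR adjusted p = 0.000116). Mr1, which presents vitamin B metabolites, had 12 to 30 counts per library and a log2 fold change of 0.71 on this low level (edgeR adjusted p = 0.0383), called in 8 of 14 alternatives. H2-M3, which presents formylated peptides, was at 38.1 ± 2.01 and 35.7 ± 1.16 CPM (log2 fold change -0.09; edgeR adjusted p = 0.155). Without sgControl replicate 3 it was called lower (-0.14, edgeR adjusted p = 0.0247), and without sgControl replicate 2 it was at -0.055. Its promoter window held the same X2 core and Y box at 20 bases.

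Of 12 chaperones and editors of class I assembly, 6 rose and 1 fell (all tested genes: 22.1% higher, 20.4% lower), with a median log2 fold change of 0.06. Tapbpl (TAPBPR), a peptide editor related to tapasin, was the gene that fell: from 11.1 ± 1.22 to 8.61 ± 0.490 CPM (SD, n = 3; log2 fold change -0.36, SE 0.10; edgeR adjusted p = 0.00408), called lower under all 14 alternatives. It thus moved against Tapbp. The endoplasmic reticulum chaperones Hspa5 (BiP; 0.28, adjusted p = 1.3e-09), Pdia6 (0.23, adjusted p = 1.8e-06) and Uggt1 (0.18, adjusted p = 0.00032), the last a glucosyltransferase of glycoprotein folding, rose by edgeR; with the correction for GC content and length Uggt1 was at 0.11 (edgeR adjusted p = 0.00786). These serve many glycoproteins besides class I. Sec22b rose by 0.15 (edgeR adjusted p = 0.00228). The lectin chaperones and the disulfide isomerase of the loading complex were not called: Calr (0.03), Canx (-0.00) and Pdia3 (0.04) had edgeR adjusted p = 0.391, adjusted p = 0.97 and adjusted p = 0.272.

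For the genes that supply peptides, the shares called were near or below those of all tested genes (22.1% higher, 20.4% lower). Of 7 proteasome activator and immunoproteasome genes 1 rose and 1 fell (median 0.02). Psmb8, an inducible catalytic subunit, rose from 2.09 ± 0.351 to 3.24 ± 0.694 CPM on 32 to 73 counts per library (log2 fold change 0.63; edgeR adjusted p = 0.0101; called in 11 of 14 alternatives). Psmb9, the neighbour of Tap1, had 17 to 32 counts and differed by 0.39 on the log2 scale (edgeR adjusted p = 0.256), or by 0.15 without sgCdk10 replicate 1. Psmb10 differed by -0.12 (edgeR adjusted p = 0.179) and Psme2 by 0.09 (edgeR adjusted p = 0.219). The assembly factor Pomp fell by 0.09 (edgeR adjusted p = 0.0335; called in 7 of 14). Of 10 cytosolic and related peptidases 2 rose and 1 fell, with a median of -0.01. Npepps (0.28, edgeR adjusted p = 2.1e-07) and Lnpep (0.24, edgeR adjusted p = 2.4e-06) rose. Prep fell (-0.19, edgeR adjusted p = 1.9e-05), and Thop1 was at 0.10 without a call (edgeR adjusted p = 0.0986).

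Among 21 tested transcription factors of class I promoters and subunits of the silencing complex PRC2, 11 rose and 4 fell. Of all tested genes 22.1% were called higher and 20.4% lower, so the share that fell was near that of all genes. The median log2 fold change was 0.10. Creb1, which binds the X2 core, rose from 59.8 ± 1.18 to 73.9 ± 0.946 CPM (SD, n = 3; log2 fold change 0.30; edgeR adjusted p = 9.2e-07). Atf1, also in this list, fell by 0.10 (edgeR adjusted p = 0.0152). The subunits of the Y box factor NF-Y differed in direction. Nfyc fell by 0.25 (edgeR adjusted p = 4.6e-05), while Nfya (0.15, edgeR adjusted p = 0.00142) and Nfyb (0.22, edgeR adjusted p = 0.00674) rose. Of the factors that bind interferon elements or act upstream of them, Irf3 (0.33, edgeR adjusted p = 1.6e-05) and Irf1 (0.27, edgeR adjusted p = 0.00159) rose. Irf2 (0.15, edgeR adjusted p = 0.0344) and Irf8 (0.80 on 22 to 46 counts per library, edgeR adjusted p = 0.00241) were also called higher. Irf9 (-0.09, edgeR adjusted p = 0.100) and Stat2 (0.07, edgeR adjusted p = 0.226) were not called. Rfx5, the DNA-binding subunit of the X1 box factor RFX, stood at a log2 fold change of -0.11 without a call (edgeR adjusted p = 0.513). Of the other RFX subunits, Rfxap rose by 0.27 (edgeR adjusted p = 0.000835) and Rfxank was at 0.0015 without a call (edgeR adjusted p = 0.993). Ezh2, the methyltransferase of the PRC2 complex, known to silence class I genes in some tumours, fell by 0.17 (edgeR adjusted p = 0.000304). The PRC2 subunits Eed (0.0057, edgeR adjusted p = 0.933) and Suz12 (-0.04, edgeR adjusted p = 0.336) were not called.

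Among 12 tested genes of class I turnover and quality control, 6 rose and 2 fell (median 0.03; all tested genes: 22.1% higher, 20.4% lower). The rises included Irgq, an autophagy receptor of class I (0.38, edgeR adjusted p = 1.6e-06). Susd6, a part of a complex that sends class I to lysosomes, also rose (0.27, edgeR adjusted p = 9.4e-06). So did the ubiquitin ligase gene March9 (0.46, edgeR adjusted p = 0.000134) and Syvn1, a ligase of endoplasmic reticulum degradation (0.33, edgeR adjusted p = 2.9e-06). March8 (-0.10, edgeR adjusted p = 0.0349) and Ube2j2 (-0.14, edgeR adjusted p = 0.00797) fell. Class II genes were nearly silent: 7 of 10 had no count in any library, and 2 were tested, Cd74 (0.25, edgeR adjusted p = 0.519) and H2-DMa (-0.08, edgeR adjusted p = 0.729).

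**Figure D5:**
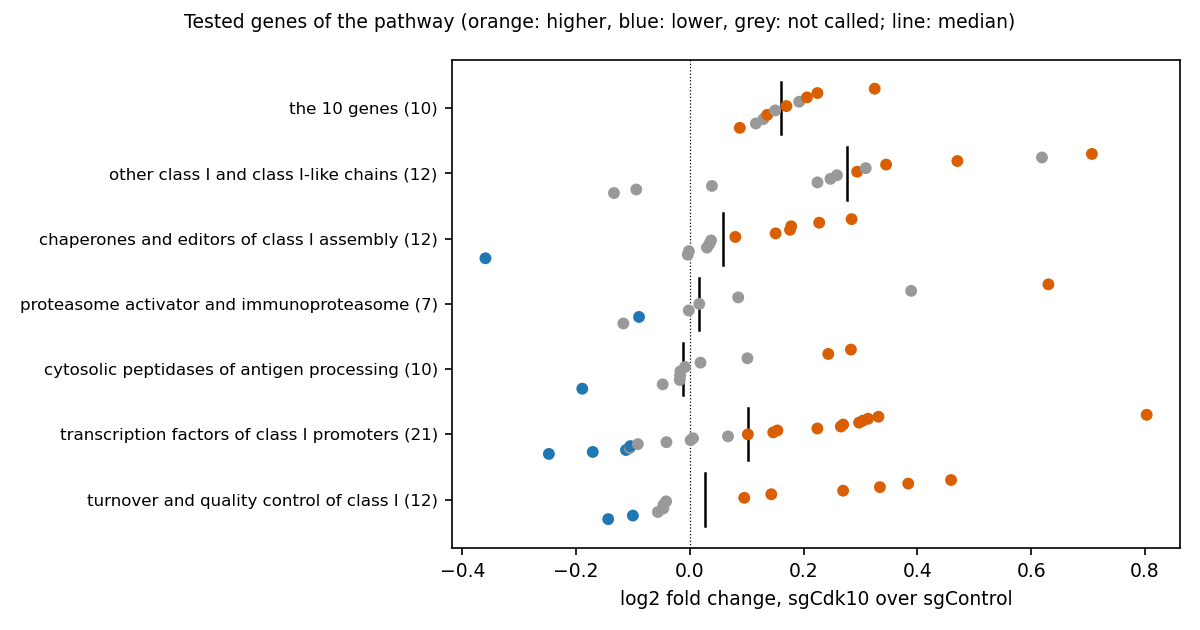
Log2 fold change (sgCdk10 over sgControl) of the tested genes of 7 lists, with the number tested in brackets; orange points were called higher, blue lower, grey not called, and black lines are medians. The 10 genes lie between 0.09 and 0.33, while lists such as chaperones (-0.36 to 0.28) and cytosolic peptidases (-0.19 to 0.28) spread to both sides of 0.

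Markers of other cell types were measured beside these values. Of 22 leukocyte markers, 18 had at most 3 counts in every library; their summed level was 41.7 to 48.3 CPM in sgControl and 44.0 to 46.1 in sgCdk10, nearly all of it Cd14, and 1.02 to 1.19 and 0.773 to 1.25 CPM without it. Of the epithelial and colon markers, Epcam had no count and Cdh1 at most 1 count per library, so these defining epithelial markers were at or near 0 in a line described as a carcinoma; the list's sum, mostly Krt18, was 37.6 to 42.0 CPM in sgControl and 59.3 to 60.2 in sgCdk10. Of the 4 tested markers of this list, Krt18 (0.65, edgeR adjusted p = 1.4e-09) and Krt20 (0.51, edgeR adjusted p = 4.8e-06) rose. Muc2, the mucin of goblet cells, fell by 0.93 on 7 to 16 counts per library (edgeR adjusted p = 0.0305; called in 6 of 13 alternatives), and Lgals4 was at -0.07. The 11 fibroblast and endothelial markers, mostly Col1a2, summed to 1312 to 1460 CPM in sgControl and 1509 to 1530 CPM in sgCdk10. Of the 4 tested, Pdgfra (0.63, edgeR adjusted p = 2.2e-06) and Col1a1 (0.27, edgeR adjusted p = 0.00406; 0.17 with the GC and length correction) rose. Col1a2 rose by 0.10 (edgeR adjusted p = 0.0284; called in 9 of 14 alternatives, and at 0.04 without sgControl replicate 3), and Vwf was at -0.18. Both sums were higher in sgCdk10 while single markers differed in direction, and their part in the class I differences was not tested.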

How the data were processed

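The authors deposited 1 table of raw, unnormalized gene counts that covers the 6 libraries under Ensembl identifiers; groups and replicate numbers come from the library titles. The submitters' processing notes list the build mm10, the aligner HISAT2 (2.2.1), the counter featureCounts (2.0.3) and the package DESeq2 (1.40.2). Neither the annotation release nor the strand setting is given in the sources used here, so reads of overlapping or near-identical genes cannot be separated with certainty. Symbols and coordinates were taken from GENCODE M21 (GRCm38), which matched 52029 of 57010 identifiers.

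Genes were kept by edgeR's filterByExpr (minimum count 10, minimum total 15), leaving 13442, and scaled by TMM. Differences were tested with edgeR 4.0.16 (R 4.3.3) by the quasi-likelihood test (robust dispersions, no covariate), with Benjamini-Hochberg adjustment over all tested genes and a threshold of 0.05. SE is the absolute log2 fold change over the root of F. Alternatives were RLE size factors, a replicate block, non-robust dispersions, no filter, a filter of 1 CPM in all libraries of a group, DESeq2 1.42.0, limma-voom (limma 3.58.1) and leaving out each library; a GC and length correction (loess, span 0.5) was added after seeing the data. For the ratio, raw counts, the mean of log2 values and other chains were tried. The scripts were tested on simulated data. The floor of 3 counts covers counting error only.

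The genes and lists were chosen with earlier results of these data known. Named were the 10 genes, Cdk10, the 4 genes with the smallest p in each list and, always, Psmb8, Psmb9, Psmb10, Tapbpl, Calr, Canx, Pdia3, H2-Q4, H2-M3, Irf1, Rfx5 and Cd74; 1 gene that the rule names is not reported here. Epcam, Cdh1, Nfya, Nfyb, Atf1, Irf2, Irf8, Irf9, Stat2, Rfxap, Rfxank, Eed, Suz12, March8 and Ube2j2, outside this rule, were named after their values were seen.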

Additional observations from a re-analysis of the deposited data

How the results depend on the processing

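Over 14 alternatives the log2 fold changes of all 10 class I and loading genes stayed above 0; of their 140 single values, 119 kept their side of the threshold, 16 lost a call and 5 gained one. DESeq2 called 3 of the 10 higher, while the other alternatives with all 6 libraries called 5 or 6 and leaving out 1 library 4 to 7, with 0 called lower throughout. The classical to non-classical log2 difference was 0.043 with all tested non-classical chains, -0.21 with H2-T23 alone and -0.11 to -0.022 on leaving out 1 library. The replicate block gave 5481 called genes against 5717 and Cdk10 -0.82; it called H2-T22 (adjusted p = 0.0454) and not H2-K1 (0.0532). Deviations of same-numbered libraries correlated at 0.03, -0.06 and -0.10, and no sgControl library had its highest correlation with the same number, so the numbers were not taken to pair libraries. All genes called ran from 4179 (DESeq2) to 5952 (GC and length correction), and from 4791 to 6056 on leaving out 1 library. Signs changed on leaving out 1 library for Canx (-0.023 to 0.019), Cd14 (-0.051 to 0.061), H2-DMa (-0.16 to 0.015), Lgals4 (-0.40 to 0.14), Rfx5 (-0.20 to 0.016) and Vwf (-0.32 to 0.11), none of them called, and for Thop1 with the GC and length correction (-0.0044); the cause was not tested. Depth limits Mr1, Psmb8, Psmb9, Irf8, Muc2, Cd74, Lgals4, Vwf and H2-DMa, with under 80 counts per library.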
